A study of Homo sapiens with 6 samples.

Results

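The 255 protein-coding genes of human chromosome 19 whose symbols begin with ZNF or ZFP followed by a number were described in A375SM, a human melanoma cell line derived from A375 and selected for metastasis. They were chosen by symbol, biotype and chromosome in the RefSeq annotation of GRCh38, through the NCBI gene IDs of the count tables. No measured value entered this rule, but the family was chosen with earlier results of these data known. All 255 were found among the 40895 gene IDs. The cells carried either a short hairpin RNA against PRAME (shPRAME, 3 libraries) or a control hairpin (shCtrl, 3 libraries), and the genotype label was WT in both groups. RNA was enriched for polyA tails and sequenced as read pairs of 150 bases, and the 6 libraries had 1 batch label. The labels give neither the hairpin sequences nor whether the libraries came from separate transductions, so p-values measure the spread between these libraries only.

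Zinc finger proteins of the C2H2 class carry repeats of a short fold held by a zinc ion, and an array of such fingers reads a DNA sequence. Many also carry a KRAB domain, which recruits TRIM28 and, through it, the histone H3 lysine 9 methyltransferase SETDB1 and heterochromatin proteins. Their genes multiplied by tandem duplication and stand in clusters on chromosome 19, and many of the proteins bind transposable elements. PRAME is a cancer testis antigen of melanoma. Some symbols chosen by name are other kinds of gene, such as ZFP36, whose protein carries CCCH fingers and promotes decay of mRNA.

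The library totals were 30842788 to 33854545 counts in shPRAME and 31525186 to 34107332 in shCtrl. PRAME, the targeted gene, had 1803, 1993 and 1857 counts in shPRAME, against 5623, 5356 and 5083 in shCtrl (log2 fold change -1.55, SE 0.0314, adjusted p = 4.85e-17, edgeR quasi-likelihood test with Benjamini-Hochberg adjustment). The melanocytic regulator SOX10 averaged 275.4 CPM (the usual counts-per-million unit, scaled by TMM, edgeR's correction for library composition) in shPRAME and 265.7 CPM in shCtrl, while the pigment markers PMEL, MLANA, TYR, DCT and TYRP1 were at or near 0 in both. The other 3 of the 9 melanocytic genes were lower, S100B at 28.2 CPM in shPRAME and 54.0 CPM in shCtrl, MITF at 37.7 CPM in shPRAME and 44.6 CPM in shCtrl, and PAX3 at 9.24 CPM in shPRAME and 13.17 CPM in shCtrl, and the list summed to 350.3 to 351.6 CPM in shPRAME and 369.8 to 384.9 CPM in shCtrl. The fibroblast list, in which 4 of 6 genes were higher and 1 lower, summed to 69.4 to 73.1 CPM in shPRAME and 48.9 to 50.7 CPM in shCtrl, and in it COL1A2 averaged 21.6 CPM in shPRAME and 0 in shCtrl and DCN 0.327 CPM in shPRAME and 0 in shCtrl, while FAP was lower, at 27.0 CPM in shPRAME and 46.1 CPM in shCtrl. The leukocyte list of 5 genes, nearly all CD68 counts, with 3 genes higher and CD3E at 0, summed to 72.2 to 74.1 CPM in shPRAME and 42.8 to 45.1 CPM in shCtrl. The keratinocyte list of 5 genes summed to 23.2 to 24.4 CPM in shPRAME and 27.7 to 29.6 CPM in shCtrl, with KRT5, KRT1 and TP63 at 0, and the endothelial list of 3 genes, with CDH5 at 0, to 0.145 to 0.405 CPM in shPRAME and 0.195 to 0.533 CPM in shCtrl. The part of these lists in the results on the zinc finger genes was not tested. In such bulk samples a change in the number of expressing cells and a change in RNA per cell cannot be told apart.

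Many of the largest changes lay at 19p13.2. There a run of neighbouring zinc finger genes had almost no counts in shCtrl, and many had counts in every shPRAME library. The sequence before their start sites is shown here because the run held both genes that came up and a gene, ZNF136, that did not differ detectably. Each line gives 250 bases before to 50 bases after an annotated start site, 5′ to 3′ on the gene's strand, from RefSeq on GRCh38.p14, with the word CCAATCAG in capitals where it occurs. ZNF700 (chr19:11924857-11925156, plus strand), ZNF440 (chr19:11814023-11814322, plus), ZNF441 (chr19:11766750-11767049, plus) and ZNF44 (chr19:12294834-12295133, minus) were switched on in shPRAME by the rule given with their values. ZNF136 (chr19:12162846-12163145, plus) lay among them with counts in both groups, and ZNF69 (chr19:11887532-11887831, plus), the neighbour of ZNF700, had a single count over all 6 libraries. ZNF730 of 19p12 (chr19:23116775-23117074, plus) and ZNF558, alone at another place in 19p13.2 (chr19:8832255-8832554, minus), were switched on outside the run.
ZNF700: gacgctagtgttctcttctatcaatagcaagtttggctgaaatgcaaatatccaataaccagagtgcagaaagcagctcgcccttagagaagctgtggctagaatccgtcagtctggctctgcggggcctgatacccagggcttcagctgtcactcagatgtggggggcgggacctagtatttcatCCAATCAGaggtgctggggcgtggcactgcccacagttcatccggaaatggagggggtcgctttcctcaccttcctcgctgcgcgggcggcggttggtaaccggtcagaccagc
ZNF440: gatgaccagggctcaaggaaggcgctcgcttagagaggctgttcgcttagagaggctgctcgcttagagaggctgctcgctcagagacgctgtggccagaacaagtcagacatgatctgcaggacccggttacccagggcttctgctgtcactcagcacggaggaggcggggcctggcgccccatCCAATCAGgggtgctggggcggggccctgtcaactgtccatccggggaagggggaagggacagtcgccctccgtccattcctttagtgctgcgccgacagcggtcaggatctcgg
ZNF441: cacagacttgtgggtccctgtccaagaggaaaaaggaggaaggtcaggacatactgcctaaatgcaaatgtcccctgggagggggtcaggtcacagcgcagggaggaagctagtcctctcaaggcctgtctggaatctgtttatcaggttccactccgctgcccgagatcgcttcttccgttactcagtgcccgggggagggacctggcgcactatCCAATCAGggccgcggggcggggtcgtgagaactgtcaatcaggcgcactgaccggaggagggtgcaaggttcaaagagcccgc
ZNF44: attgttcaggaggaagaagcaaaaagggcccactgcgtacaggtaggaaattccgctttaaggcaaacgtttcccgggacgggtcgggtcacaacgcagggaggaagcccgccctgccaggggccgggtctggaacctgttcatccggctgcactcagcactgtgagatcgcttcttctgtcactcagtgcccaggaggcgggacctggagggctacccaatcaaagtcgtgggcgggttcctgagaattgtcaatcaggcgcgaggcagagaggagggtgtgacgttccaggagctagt
ZNF136: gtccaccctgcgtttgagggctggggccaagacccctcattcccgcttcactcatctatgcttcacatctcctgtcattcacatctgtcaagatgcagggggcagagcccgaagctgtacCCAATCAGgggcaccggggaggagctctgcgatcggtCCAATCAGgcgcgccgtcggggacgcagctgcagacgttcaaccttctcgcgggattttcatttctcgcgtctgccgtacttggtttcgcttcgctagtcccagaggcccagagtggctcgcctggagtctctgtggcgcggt
ZNF69: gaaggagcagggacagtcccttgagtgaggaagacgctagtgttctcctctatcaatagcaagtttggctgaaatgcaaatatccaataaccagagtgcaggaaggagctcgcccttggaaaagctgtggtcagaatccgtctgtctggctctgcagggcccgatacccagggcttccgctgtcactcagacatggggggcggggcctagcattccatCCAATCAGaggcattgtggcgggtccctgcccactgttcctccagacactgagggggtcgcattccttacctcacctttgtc
ZNF730: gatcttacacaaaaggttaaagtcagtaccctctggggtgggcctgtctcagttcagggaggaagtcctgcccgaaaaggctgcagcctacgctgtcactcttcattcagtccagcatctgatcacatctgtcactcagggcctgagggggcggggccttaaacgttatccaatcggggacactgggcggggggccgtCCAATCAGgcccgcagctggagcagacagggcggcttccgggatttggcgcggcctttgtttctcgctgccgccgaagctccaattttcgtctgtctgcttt
ZNF558: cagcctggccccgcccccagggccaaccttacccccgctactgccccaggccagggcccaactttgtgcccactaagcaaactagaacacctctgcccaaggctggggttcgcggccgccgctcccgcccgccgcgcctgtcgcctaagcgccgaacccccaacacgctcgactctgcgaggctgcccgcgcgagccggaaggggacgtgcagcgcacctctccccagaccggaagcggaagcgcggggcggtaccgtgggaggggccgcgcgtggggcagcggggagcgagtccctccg

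The ZNF69 and ZNF700 windows shared 236 of 300 bases (78.7%) in a global alignment, although ZNF700 had 317, 374 and 359 counts in the shPRAME libraries and ZNF69 had 1, 0 and 0. The ZNF136 window shared 48.7% to 62.7% of its bases with the other windows compared in the run. Pairs of windows without ZNF136 shared 49.0% to 86.3%, and some pairs of switched-on genes were as low as ZNF136, such as ZNF20 and ZNF443 at 49.3%. The word CCAATCAG, searched on both strands with its reverse complement CTGATTGG and chosen after the sequences were seen, occurred in 17 of the 21 windows of the run (81.0%). It was in 7 of the 11 windows of the run's switched-on genes and in 10 of the 10 windows of its other genes with an entry, ZNF136 among them. It was in 27 of 28 windows of 19p12 (96.4%), in 4 of 193 windows of 19q13 (2.07%), in 58 of 275 windows of 222 zinc finger genes of the chromosome (21.1%), and in 1393 of all 35116 promoter windows (3.97%). The word was thus found before genes that were switched on and before genes that were not, and a match says nothing of a factor's binding. CG pairs had a median of 16 per window in the run's switched-on genes and 15 in its other genes, against 14 over all promoters. Among the other zinc finger genes the median was 19 in 19p13.2 outside the run, 10 in 19p12 and 22 in 19q13. ZNF558, with 34 CG pairs in the printed window, lacked the word there.

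Of the 255 genes, 206 had enough counts to be tested and 49 did not, of which 12 had no count in any library. Among the 206, 73 were higher in shPRAME (35.4%) and 67 were lower (32.5%) at an adjusted p under 0.05 in edgeR's quasi-likelihood test. Over all 15954 genes tested, 74.4% passed, with 37.7% higher and 36.8% lower, so the shares among the zinc finger genes were near, and slightly below, those of all genes. The median log2 fold change of the 206 was 0.02, against 0.01 over all genes tested. The 3 libraries of 1 group lay entirely above the other 3 for 145 of the 206 genes, against 76.5% of all genes.

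The sizes were unevenly divided. At least 4-fold differences were found for 22 genes higher in shPRAME and 2 lower of the 206 tested, where 5.08% and 3.00% of all genes passed these limits, and at least 2-fold differences for 31 higher and 3 lower of the 206, where the shares of all genes were 10.1% and 8.43%. The 22 include the 13 genes called switched on below. Those 13 passed the filter through their shPRAME counts alone, so these tallies describe the sizes and test nothing. The genes without any count numbered 13 in shPRAME and 34 in shCtrl. A count was recorded for 233, 229 and 234 of the 255 genes in the shPRAME libraries, against 211, 207 and 212 in the shCtrl libraries. All zinc finger genes of the chromosome together held 2258, 2244 and 2224 CPM in shPRAME, against 2103, 2112 and 2135 CPM in shCtrl, which is at most 0.229% of the counts of any library. The other 1155 protein-coding genes of the chromosome, of which 698 were tested, had 185 higher and 291 lower, with 11 higher and 22 lower by at least 4-fold and a median of -0.07. The ZNF and ZFP genes of other chromosomes had 105 higher and 68 lower among 245 tested, with 13 higher and 3 lower by at least 4-fold.

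**Figure D1:**
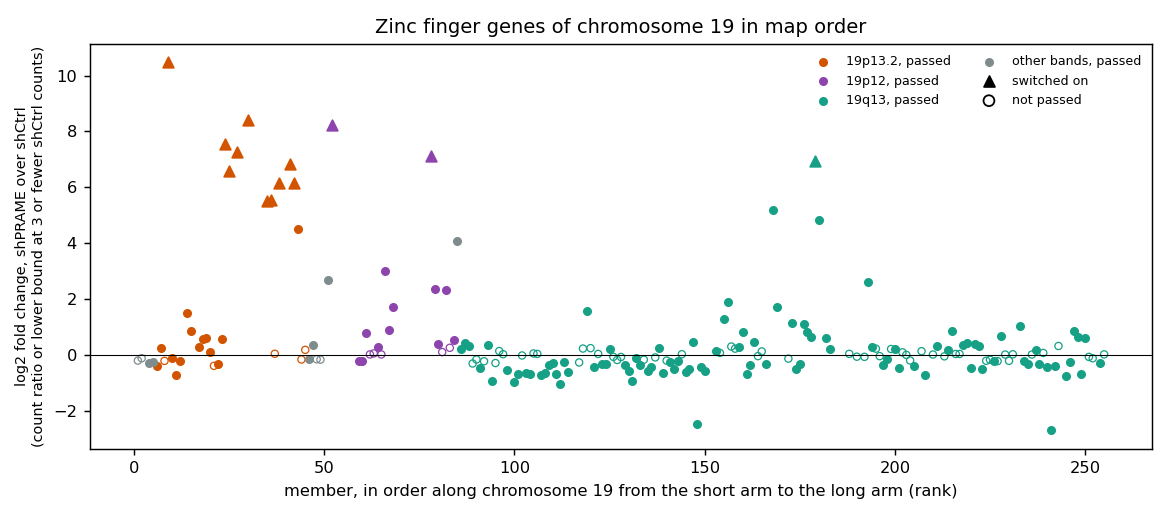
Log2 fold change, shPRAME over shCtrl, of each tested zinc finger gene of chromosome 19 on the vertical axis, in the order of the genes along the chromosome from the short arm end to the long arm end on the horizontal axis; for genes with at most 3 shCtrl counts the value is the count ratio or a lower bound. Of the 22 genes higher by at least 4-fold, 11 lie in 19p13.2, 10 of them close together, 5 in 19p12 and 4 in 19q13. Most other values of 19q13 are scattered around 0.

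A gene was called switched on when it passed the test, averaged under 0.1 CPM in shCtrl and reached at least 1 CPM in every shPRAME library, and switched off in the reverse case. By this rule 13 of the 206 tested genes were switched on (6.31%) and none off, where 0.934% of all genes were on and 0.307% off. The genes switched on at 19p13.2 were 10, ZNF558, ZNF823, ZNF441, ZNF440, ZNF700, ZNF20, ZNF625, ZNF44, ZNF799 and ZNF443. ZNF93 and ZNF730 lay in 19p12, and ZNF320 in 19q13.41. The other protein-coding genes of the chromosome had 0 on and 1 off among 698 tested, and the ZNF and ZFP genes of other chromosomes 4 on among 245. Without the 13, the zinc finger genes had 60 higher and 67 lower and a median log2 fold change of -0.04.

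ZNF558, a KRAB zinc finger gene known as a repressor of the mitophagy gene SPATA18 in human neural progenitors, had 502, 463 and 497 counts in the shPRAME libraries, against 0, 1 and 0 in the shCtrl libraries. The shPRAME libraries lay close together and the groups were far from overlap. It averaged 14.6 ± 1.33 CPM in shPRAME (SD, n = 3) and 0.0102 ± 0.0177 CPM in shCtrl (SD, n = 3), a ratio of 1420 with a 95% exact binomial counting interval of 254.4 to 56105.4 and an adjusted p of 1.51e-15 in edgeR's test. Such intervals cover counting error only, since read pairs without molecular identifiers are not independent molecules. The gene spans chr19:8806170-8838144, and its transcript shared no stretch of 100 bases with another gene. The nearest other protein-coding genes, OR2Z1 and MBD3L1, had no counts in either group.

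In the run, ZNF440 had 392, 453 and 482 counts in shPRAME, against 1, 2 and 5 in shCtrl. It averaged 13.22 ± 0.710 CPM in shPRAME (SD, n = 3) and 0.0843 ± 0.0692 CPM in shCtrl, a log2 fold change of 7.26 (SE 0.207, adjusted p = 4.33e-15, edgeR). This was the only switched-on gene with more than 5 counts over the shCtrl libraries, and without shCtrl replicate 1 its control mean passes 0.1 CPM. ZNF700 had no count in any shCtrl library and averaged 10.5 ± 0.356 CPM in shPRAME (SD, n = 3), so that it was at least 339.8-fold higher, taking 3 counts over the shCtrl group as the limit that 0 allows. Its span overlaps that of ZNF69, which had 1 count in all.

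The other switched-on genes of the run were at lower count levels, and in each of them all shPRAME libraries lay above all shCtrl libraries. ZNF441 had 99, 96 and 101 counts in shPRAME and 0, 0 and 0 in shCtrl, at least 95.8-fold. ZNF44 had 65, 73 and 82 counts in shPRAME and 0 in each shCtrl library, at least 71.2-fold.
ZNF625 likewise had 47, 57 and 41 counts in shPRAME and none in shCtrl, at least 46.9-fold, and ZNF20, the next gene, had 86, 94 and 69 counts in shPRAME and 1, 2 and 2 in shCtrl (log2 fold change 5.50, SE 0.329). These neighbours share 76.7% and 71.4% of their 100-base stretches with an annotated readthrough transcript that joins them, so the division of reads between them is uncertain.
ZNF823 had 65, 66 and 60 counts in shPRAME and 1, 0 and 0 in shCtrl, a ratio of 185.4 (interval 32.9 to 7363). ZNF443 had 46, 52 and 49 counts in shPRAME and 0, 1 and 1 in shCtrl, a ratio of 71.4 (interval 19.4 to 594.8). ZNF799, which shares 14.2% of its stretches with another annotated transcript, had 41, 42 and 36 counts in shPRAME and 1, 0 and 0 in shCtrl, a ratio of 115.5 (interval 20.3 to 4602).
Over the 13 switched-on genes the adjusted p was between 1.51e-15 (ZNF558) and 7.96e-09 (ZNF799) in edgeR's test.

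Outside 19p13.2, ZNF730 had 115, 166 and 152 counts in shPRAME and 0 in each shCtrl library, at least 140.1-fold. ZNF93, known for binding and repressing LINE-1 elements, had 85, 107 and 119 counts in shPRAME and 0, 0 and 1 in shCtrl, a ratio of 302.0 (interval 53.8 to 11964.7). ZNF320 had 177, 192 and 185 counts in shPRAME and 0, 2 and 2 in shCtrl (log2 fold change 6.95, SE 0.282). ZNF320 shares 99.5% of its stretches with a transcript annotated to the next gene, ZNF468, and ZNF468 had 221, 251 and 224 counts in shPRAME, against 139, 145 and 152 in shCtrl, so reads may be divided between them. Close to the limits of the rule, ZNF709 had 23, 25 and 22 counts in shPRAME and none in shCtrl, but its lowest shPRAME library stood at 0.637 CPM. ZNF888, ZNF880 and ZNF429, with lowest shPRAME libraries of 0.640, 0.608 and 0.464 CPM, also missed the 1 CPM limit, whereas ZNF799 was just inside it at 1.04 CPM.

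**Figure D2:**
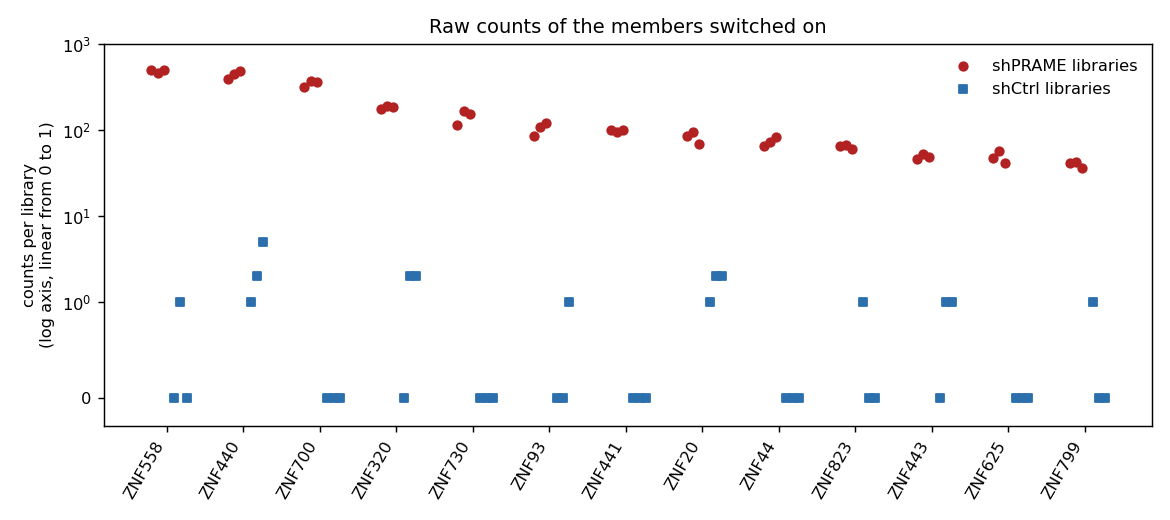
Raw counts by library of the 13 zinc finger genes switched on, on an axis that is logarithmic above 1 count and linear from 0 to 1, with the 3 shPRAME libraries left of the 3 shCtrl libraries for each gene. Every shPRAME library has at least 36 counts and no shCtrl library more than 5.

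The run from ZNF823 to ZNF709 (chr19:11721265-12484816 on GRCh38, 763.6 kb) held 20 zinc finger genes and no other protein-coding gene. It was delimited after the values were seen, so its counts describe it and test nothing. In shCtrl 19 of the 20 genes averaged under 0.1 CPM and 14 had no count, and in shPRAME 9 of these met the rule for switched on. The 19 genes without ZNF136 summed to 1195, 1345 and 1317 counts in the shPRAME libraries, against 4, 5 and 8 in the shCtrl libraries. The 9 genes ZNF491, ZNF439, ZNF69, ZNF763, ZNF433, ZNF878, ZNF844, ZNF563 and ZNF442 of the run were not tested. They had no shCtrl count and 1 to 14 counts over the shPRAME libraries, at most 0.142 CPM on average. Genes with almost no counts in either group therefore stood next to genes with over 300 counts in each shPRAME library.

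ZNF136 was the exception, with 189, 198 and 215 counts in shPRAME, against 189, 207 and 170 in shCtrl. The groups overlapped and the means were 6.01 ± 0.245 CPM in shPRAME and 5.81 ± 0.452 CPM in shCtrl (SD, n = 3 each; log2 fold change 0.05, SE 0.0974, adjusted p = 0.675, edgeR). At the edges of the run, ZNF627 was higher (9.49 CPM in shPRAME and 6.39 CPM in shCtrl) and ZNF791 lower (37.4 CPM in shPRAME and 41.5 CPM in shCtrl). ZNF564, at 4.48 CPM in shPRAME and 5.0 CPM in shCtrl, and ZNF490, at 10.2 CPM in shPRAME and 8.92 CPM in shCtrl, did not pass, and most of the sequence of both is shared with other annotated transcripts (82.7% and 70.5%). Some non-coding transcripts inside the run were raised as well, ZNF433-AS1 at 1.25 CPM in shPRAME and 0.0108 CPM in shCtrl and the pseudogene ZNF788P at 1.07 CPM in shPRAME and 0.00986 CPM in shCtrl. Others were not tested. The pseudogene LOC100289333 had 1, 1 and 0 counts in shPRAME and 1, 0 and 0 in shCtrl. The readthrough ZNF625-ZNF20 had 0, 5 and 0 counts in shPRAME and none in shCtrl, and LOC124904639 had no count. The nearest other protein-coding genes moved little by comparison, ACP5 being lower (15.7 CPM in shPRAME and 22.8 CPM in shCtrl) and MAN2B1 higher (61.7 CPM in shPRAME and 57.5 CPM in shCtrl, log2 fold change 0.10). Relative to the median of other protein-coding genes within 5 Mb, the 11 tested genes of the run had a median log2 difference of 7.33 by the fit, which depends on its prior count where shCtrl was at 0. Except for ZNF136, these genes passed the filter through their shPRAME counts alone, and the genes low in both groups were left out. A large positive median was thus fixed by this choice, and it describes the run without testing it.

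**Figure D3:**
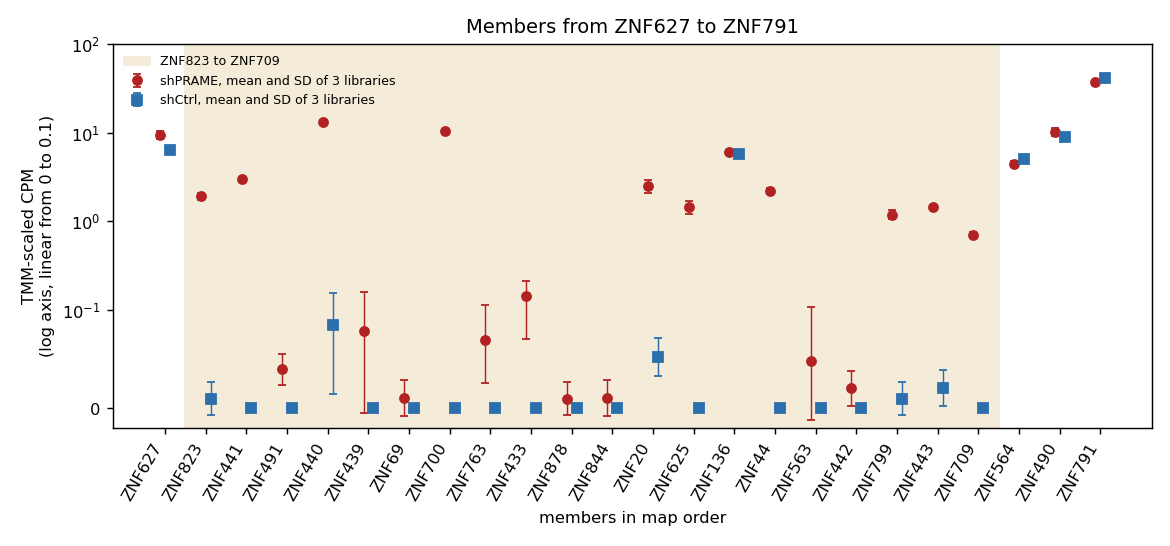
Mean TMM-scaled CPM of the zinc finger genes from ZNF627 to ZNF791 in map order, on an axis that is logarithmic above 0.1 CPM and linear below, with shPRAME left of shCtrl and error bars of 1 SD over 3 libraries. In the shaded run from ZNF823 to ZNF709 the shCtrl means lie below 0.1 CPM except for ZNF136, which is at 6.01 CPM in shPRAME and 5.81 CPM in shCtrl.

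In all, 40 of the zinc finger genes lay in 19p13.2, of which 29 were tested, 19 were higher and 5 lower, with a median log2 fold change of 0.58. The other 76 tested protein-coding genes of the band had 17 higher and 33 lower and a median of -0.09. Of the 19 higher zinc finger genes, ZNF558, ZNF177 and the 10 of the run had too few shCtrl counts to pass the filter without those of shPRAME. The 11 untested genes were left out, so the count and median of the zinc finger genes lean towards higher. In the 19p13.2 genes outside the run, 9 were higher and 5 lower of 18 tested, with a median of 0.14. ZNF558 and ZNF177 are among these 9, so the same limit holds there.
ZNF121 had 2474, 2647 and 2597 counts in shPRAME, against 1720, 1676 and 1603 in shCtrl (log2 fold change 0.58, SE 0.0324). ZNF561 averaged 27.9 ± 0.252 CPM in shPRAME and 18.5 ± 1.31 CPM in shCtrl, and ZNF266 averaged 23.5 ± 2.25 CPM in shPRAME and 12.8 ± 0.751 CPM in shCtrl (SD, n = 3 each). Both rose with no overlap of the libraries.
ZNF699 fell by 0.72 on the log2 scale, at 3.40 ± 0.462 CPM in shPRAME and 5.61 ± 1.06 CPM in shCtrl, and ZNF557 fell by 0.39, at 15.2 CPM in shPRAME and 19.9 CPM in shCtrl (SD, n = 3 each). ZNF653 was at 3.48 CPM in shPRAME and 4.38 CPM in shCtrl (adjusted p = 0.0135, edgeR). ZNF317, with the highest level per kilobase of transcript in the band over all libraries (10.3 CPM per kb in shPRAME and 11.2 in shCtrl, where ZNF121 was at 10.7 in shPRAME and 7.16 in shCtrl), had 1345, 1458 and 1504 counts in shPRAME and 1547, 1495 and 1497 in shCtrl and fell by 0.12. The falls of ZNF317 and ZNF653 no longer passed under some of the alternatives. ZNF177 and ZNF559, which are joined by an annotated readthrough transcript, moved apart, ZNF177 at 0.708 CPM in shPRAME and 0.251 CPM in shCtrl and ZNF559 at 11.9 CPM in shPRAME and 13.8 CPM in shCtrl. ZNF177 shares 95.5% of its stretches with that transcript, so its value is uncertain.

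In 19p12, 18 of 33 genes were tested, and 6 had no count in any library. Of the 18, 11 were higher, 2 were lower and 5 did not pass, with a median log2 fold change of 0.47. ZNF93, ZNF730 and ZNF429, among the 11, passed the filter through their shPRAME counts alone. Beside ZNF93 and ZNF730, the largest rise among genes of at least 2 CPM was that of ZNF724, which had 275, 308 and 284 counts in shPRAME, against 48, 71 and 46 in shCtrl (log2 fold change 2.35, SE 0.135), though 52.1% of its stretches are shared with another annotated transcript. ZNF43 had 149, 155 and 160 counts in shPRAME, against 39, 58 and 41 in shCtrl (log2 fold change 1.71, SE 0.150). ZNF100 was at 14.6 ± 0.117 CPM in shPRAME and 7.90 ± 0.497 CPM in shCtrl, ZNF254 at 16.4 ± 0.889 CPM in shPRAME and 11.2 ± 0.993 CPM in shCtrl, and ZNF738, in whose reading frame no finger was found, at 11.5 ± 0.606 CPM in shPRAME and 9.30 ± 1.11 CPM in shCtrl (SD, n = 3 each). ZNF91, known for repressing SVA elements, averaged 13.5 ± 0.737 CPM in shPRAME and 10.2 ± 0.442 CPM in shCtrl (SD, n = 3 each; log2 fold change 0.40).
The 2 lower genes, ZNF85 (7.01 ± 0.297 CPM in shPRAME and 8.20 ± 0.720 CPM in shCtrl) and ZNF430 (9.94 ± 0.356 CPM in shPRAME and 11.5 ± 0.653 CPM in shCtrl; SD, n = 3 each), had adjusted p of 0.0342 and 0.0159 in edgeR, and under some alternatives neither passed. ZNF429 (0.522 CPM in shPRAME, against 0.0617 in shCtrl) and ZNF681 (1.83 CPM in shPRAME, against 0.360 in shCtrl) were also higher, at low levels.
Next to the cluster, ZNF253 of 19p13.11, the gene before ZNF93, rose by 2.70 on the log2 scale, with 250, 265 and 244 counts in shPRAME, against 32, 45 and 36 in shCtrl. The nearest protein-coding genes that are no zinc finger genes were ATP13A1, which rose by 0.11, and LOC124904660, which had 32, 32 and 33 counts in shPRAME, against 0, 2 and 0 in shCtrl. On the other side of ZNF730, RPSA2 did not pass (2.01 CPM in shPRAME and 2.06 CPM in shCtrl).

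Of the 170 genes of 19q13, 149 were tested. Of these, 40 were higher (26.9%), 57 were lower (38.3%) and 52 did not pass, with a median log2 fold change of -0.06. The other protein-coding genes of 19q13 were near this, with 25.7% higher and 42.7% lower of 335 tested and a median of -0.07. The excess of lower genes was thus not particular to the zinc finger genes. The bands differed in direction by count. In 19q13.41, 15 were higher and 5 lower of 26 tested (median 0.39), while 19q13.12 had 2 higher and 14 lower of 26 (median -0.29) and 19q13.31 had 2 higher and 15 lower of 23 (median -0.35). Among the 15 higher genes of 19q13.41, ZNF320, ZNF880 and ZNF888 passed the filter through their shPRAME counts alone. The count and median of that band therefore lean towards higher. In 19q13.43, with 48 tested, 13 were higher and 15 lower (median 0.01). The other protein-coding genes of 19q13.12 also had more lower than higher, 17 of 31 against 2, with a median of -0.23, whereas those of 19q13.31 had 5 lower and 4 higher of 13 and a median of -0.07, and those of 19q13.41 had 2 lower and 3 higher of 8 and a median of 0.11.

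In 19q13.31 the largest fall was that of ZNF229, which had 57, 48 and 64 counts in shPRAME, against 308, 316 and 286 in shCtrl. It was at 1.69 ± 0.258 CPM in shPRAME and 9.35 ± 0.285 CPM in shCtrl (SD, n = 3 each; log2 fold change -2.47, SE 0.118, adjusted p = 4.38e-12, edgeR), which is a fall without silence. ZNF45, ZNF221, ZNF222, ZNF224, ZNF226, ZNF227, ZNF230, ZNF234, ZNF235, ZNF112 and ZNF180 were among the others that fell, and ZNF284 and ZNF285 rose; the smallest change among the 15 lower genes was -0.12 and the median -0.50. In 19q13.12 ZNF527 had 94, 97 and 113 counts in shPRAME, against 206, 217 and 180 in shCtrl (log2 fold change -1.03), and ZNF461 had 100, 90 and 95 in shPRAME, against 183, 170 and 184 in shCtrl (log2 fold change -0.95). ZNF607 of the same band went the other way, at 3.79 ± 0.365 CPM in shPRAME and 1.27 ± 0.178 CPM in shCtrl (SD, n = 3 each). ZNF146, whose level per kilobase was the highest of the 253 with a transcript length (50.6 CPM per kb in shPRAME and 39.7 in shCtrl), rose by 0.35, with no library of one group reaching those of the other. ZNF850 had a log2 fold change of -0.01 and ZNF444 of 19q13.43 one of 0.01, the smallest in size among genes of at least 5 CPM.

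In 19q13.41 the gene ZNF649 had 208, 256 and 238 counts in shPRAME, against 61, 64 and 56 in shCtrl (log2 fold change 1.91, SE 0.114). ZNF577 and ZNF528 rose by 1.28 and 1.72, and ZNF880 and ZNF888, near ZNF320, had at most 2 counts in any shCtrl library and at least 19 in each shPRAME library. The 5 genes of the band that fell were ZNF432, ZNF841, ZNF480, ZNF83 and ZNF611, none by more than 0.69 on the log2 scale. In 19q13.42 ZNF813 had 147, 150 and 172 counts in shPRAME, against 31, 32 and 12 in shCtrl (log2 fold change 2.60).
The genes of 19q13.43 included the largest fall of any tested zinc finger gene of the chromosome, ZNF418, with 11, 9 and 9 counts in shPRAME, against 57, 59 and 68 in shCtrl (log2 fold change -2.69, SE 0.239, adjusted p = 1.83e-08, edgeR). ZNF587B, the member of 19q13 with the next highest level per kilobase after ZNF146, was at 47.1 ± 0.654 CPM in shPRAME and 41.1 ± 0.986 CPM in shCtrl. ZNF274, known to bind the 3′ ends of zinc finger genes and recruit SETDB1 there, was at 10.01 ± 0.124 CPM in shPRAME and 11.9 ± 0.431 CPM in shCtrl, and fell by 0.25 (adjusted p = 3.19e-03, edgeR; SD, n = 3 each). Away from the named clusters, ZNF536 of 19q12, a gene of neural tissue, had 203, 275 and 314 counts in shPRAME, against 14, 8 and 23 in shCtrl (log2 fold change 4.08, SE 0.223). ZNF253, ZNF418, ZNF274, ZNF91, ZNF536, ZNF429, ZNF681, ZNF709, ZNF880, ZNF888, ZNF577, ZNF528, ZNF468, ZNF177 and ZNF559 were named after their values were seen.

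**Figure D4:**
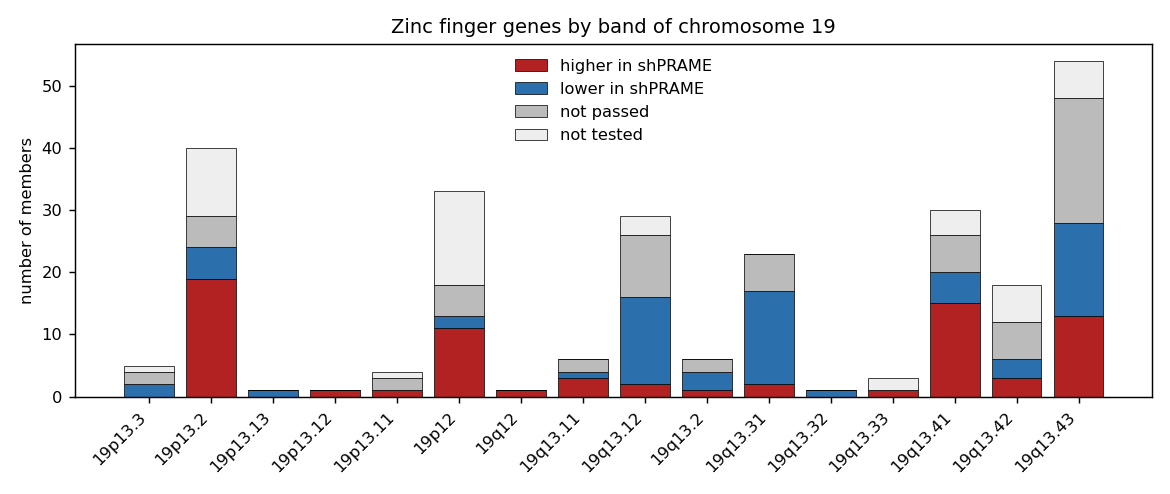
Number of zinc finger genes in each cytogenetic band of chromosome 19, stacked by whether they were higher in shPRAME, lower in shPRAME, tested without passing, or not tested. Higher genes outnumber lower ones in 19p13.2 (19 and 5), 19p12 (11 and 2) and 19q13.41 (15 and 5), and lower ones prevail in 19q13.12 (14 and 2) and 19q13.31 (15 and 2). Genes with almost no shCtrl counts were tested only because of their shPRAME counts.

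A KRAB pattern and the number of fingers were read from the longest open reading frame found in any annotated transcript of the gene. A reading frame was found for 253 of the 255. It carried a KRAB pattern in 194 of them, of which 154 were tested with 56 higher and 52 lower, against 17 higher and 15 lower of 52 among those without it. Of the 13 switched-on genes 11 had the pattern, and ZNF700 and ZNF730 had none by this search. The number of fingers was 0 to 36 with a median of 12 over all, and 8 to 18 with a median of 14 among the switched-on genes. The median coefficient of variation among genes of at least 5 CPM was 5.30% in shPRAME and 5.83% in shCtrl.
By transcript sequence 154 of 253 genes shared no stretch of 100 bases with another gene and 18 shared over 20%, and 96 overlap the span of another gene. The readthrough genes ZNF559-ZNF177, ZNF816-ZNF321P and ZNF765-ZNF761 were not tested.

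Corepressors and silencing factors linked to KRAB zinc finger proteins were followed through a list of 47 genes drawn from general knowledge. It holds TRIM28 and SETDB1 but also wider silencing genes, such as DNMT1 and DNMT3A, so its counts are not those of 1 complex. Of the 46 tested, 16 were higher, 20 lower and 10 did not pass, with a median log2 fold change of -0.03, against 37.7% higher and 36.8% lower over all genes. TRIM28, the corepressor itself, was at 469.7 ± 13.9 CPM in shPRAME and 544.6 ± 6.99 CPM in shCtrl (SD, n = 3 each; log2 fold change -0.21, SE 0.0248, adjusted p = 5.90e-07, edgeR), and did not pass against a minimum fold of 1.2. SETDB1 was at 59.1 ± 1.44 CPM in shPRAME and 59.4 ± 0.319 CPM in shCtrl and did not pass (adjusted p = 0.865, edgeR).
Of the heterochromatin proteins, CBX1 was at 143.6 ± 3.71 CPM in shPRAME and 89.3 ± 2.13 CPM in shCtrl and CBX5 at 396.6 ± 16 CPM in shPRAME and 278.1 ± 2.51 CPM in shCtrl, both higher. SMARCAD1, a chromatin remodeller that associates with TRIM28, was higher at 98.1 ± 1.02 CPM in shPRAME and 66.8 ± 2.99 CPM in shCtrl, but its log2 fold change was 0.55 and turned to -0.64, passing as lower, when the median of its neighbours within 5 Mb was taken as the zero. SUMO3, a SUMO modifier, fell by 0.96 (39.9 CPM in shPRAME and 77.8 CPM in shCtrl), HDAC1 by 0.57 (111.2 CPM in shPRAME and 164.6 CPM in shCtrl) and RBBP7, a histone-binding subunit, by 0.51 (145.5 CPM in shPRAME and 207.8 CPM in shCtrl). Measured from the median of their neighbours in the same way, these falls were smaller, with log2 fold changes of -0.18 for SUMO3, -0.22 for HDAC1 and -0.24 for RBBP7, and each still passed. The largest fall of the list was that of ATF7IP2, a gene related to the SETDB1 partner ATF7IP, at 1.85 CPM in shPRAME and 5.37 CPM in shCtrl. DNMT3L had no counts.

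**Figure D5:**
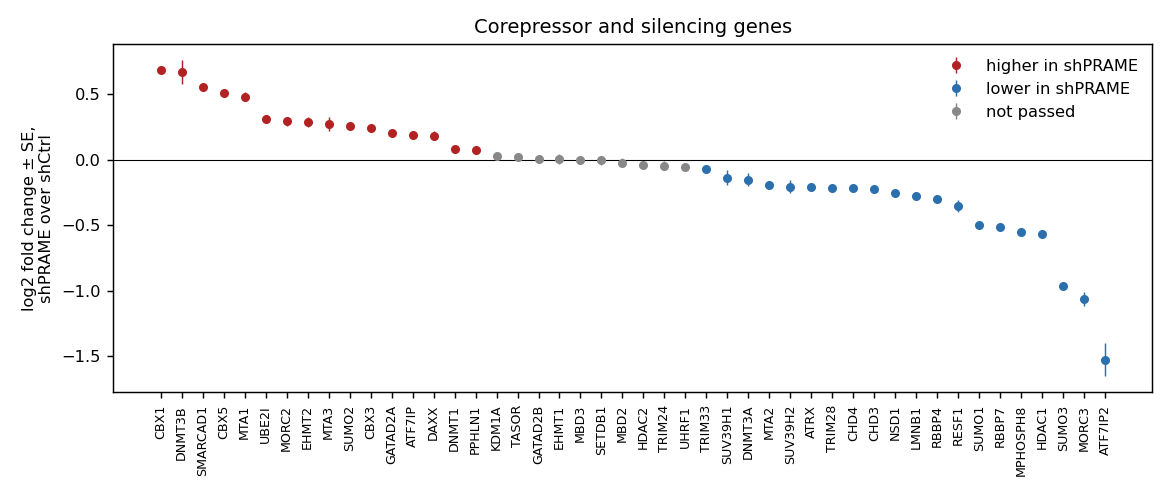
Log2 fold change, shPRAME over shCtrl, of the 46 tested corepressor genes in descending order, each with a bar of 1 standard error and coloured by whether it was higher, lower or did not pass. The 16 higher and 20 lower genes lie on both sides of 0, with CBX1 at 0.69 at one end and ATF7IP2 at -1.53 at the other.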

How the data were processed

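PolyA RNA of 6 libraries, 3 per group by the labels, was sequenced. The values are raw counts per NCBI gene ID as deposited, 40929 rows per library. The submitters' processing notes name fastp, STAR, Salmon, GRCh38 and hg38; how each served the deposited counts, and whether strand was used, is not stated there. The 34 repeated IDs were summed, leaving 40895, of which 40789 matched RefSeq. The zinc finger genes and gene lists were chosen with earlier results of these data known.

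Genes were filtered with filterByExpr and tested with edgeR 4.0.16 in R 4.3.3 (TMM scaling, quasi-likelihood test, biological coefficient of variation 3.11%), Benjamini-Hochberg adjusted over all 15954 tested genes at 0.05. Standard errors were taken as the log2 fold change over the root of F. Tested on simulated counts for 15954 genes of which 15701 passed the filter, the same test recovered 25, 32, 41 and 49 of 50 genes changed 1.2, 1.5, 2 and 4 times and called 20 unchanged genes. Far fewer genes were changed in this simulation than the 74.4% that passed in the data. Its recovery and false calls therefore do not carry over to the data. Bands were assigned by gene midpoint, and shared sequence came from GENCODE 29 transcripts. Named genes were those switched on or off, the 3 largest changes each way per cluster at 2 CPM or more, the 2 highest per kilobase in each cluster, the 2 nearest to 0, and of the corepressors TRIM28, SETDB1 and the 3 of smallest p each way. Alternatives were DESeq2 1.42.0, limma 3.58.1 with voom, other scalings and filters, a minimum fold, a regional correction, a replicate term and leaving out each library. Protein sequences and other factors' binding were not analysed here.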

Additional observations from a re-analysis of the deposited data

How the results depend on the processing

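The 13 genes switched on were the same 13 in each of the other fits, except without shCtrl replicate 1, where ZNF440 left the list and 12 remained; limits of 0.2 and 0.5 CPM gave 16, and no setting gave a gene switched off. The count of lower genes in 19p12, 2 in the report, was 0 with library totals only, in DESeq2 and against a minimum fold of 1.2, and 1 without the filter, with the replicate block and with the regional shift removed. The count of lower genes in 19p13.2, 5 in the report, was 2 in DESeq2 and 2 against the minimum fold. That minimum fold also gave 36 lower genes over all 255, 23 higher and 34 lower in 19q13, and 6 higher and 9 lower corepressor genes; it was built to call fewer. Leaving out 1 library at a time, the lower genes in 19p12 ranged from 0 (without shPRAME replicate 1 or shCtrl replicate 3) to 2, the higher genes over all from 68 to 73 and the lower ones from 57 to 67. Same-numbered libraries of the 2 groups had correlations of -0.06, -0.11 and -0.10, and libraries of different numbers had 0.01 to 0.09. The labels do not state whether the numbers pair libraries, and correlations of so few libraries cannot decide it. With the replicate block 71 genes were higher and 61 lower, 13 were switched on, and 11603 of all genes passed. The log2 fold changes of ZNF850 (-0.014), SETDB1 (-0.0065) and ZNF444 (0.0071), which passed in no setting, changed sign: ZNF850 to 0.036 and SETDB1 to 0.044 with library totals only, ZNF850 to 0.049 with the regional shift removed, and, leaving out 1 library, ZNF850 between -0.072 and 0.037, SETDB1 between -0.016 and 0.020 and ZNF444 between -0.032 and 0.049. SMARCAD1 turned to -0.64 with the regional shift removed, and SUMO3, HDAC1 and RBBP7 shrank to -0.18, -0.22 and -0.24. The cause was not tested. ZNF85 passed in none of library totals only, no filter, DESeq2, the minimum fold, the replicate block or the regional correction, and ZNF430, ZNF317 and ZNF653 lost their call in several, as did TRIM28, ZNF738 and ZNF587B against the minimum fold; leaving out 1 library, ZNF85 lost it without shPRAME replicate 1 or 3 and shCtrl replicate 2 or 3, ZNF430 without shPRAME replicate 1 and shCtrl replicate 3, and ZNF653 and ZNF317 without shPRAME replicate 2; in all, 654 gene values kept direction and side of the threshold, 25 lost the call and 11 turned. At this depth 49 genes could not be tested.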

Other observations

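The pseudogene HNRNPA1P10, next to the run of ZNF823 to ZNF709, averaged 2.08 ± 0.424 CPM in shPRAME and 1.16 ± 0.241 CPM in shCtrl (SD, n = 3 each; adjusted p = 1.06e-03, edgeR). Of the genes that passed, ZNF383, ZNF404, ZNF524, ZNF865 and ZNF671 did so although their groups overlapped.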
